A study of Mus musculus with 7 samples.

Results

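The contractile and calcium handling genes of heart muscle cells (cardiomyocytes) were examined in RNA-seq data from the mouse cardiac outflow tract (OFT), the muscular vessel that leaves the embryonic heart and from which the arterial valves form. The genes were chosen by name: 47 gene names of the sarcomere, the Z-disc, calcium handling and the natriuretic peptides, of which 46 matched 1 row each among the 14732 genes of the deposited table. The remaining name, *Cox6a2x*, matched no row and was not analysed here. The members were grouped by role into 11 genes of the thick filament and titin, 9 of the thin filament, 12 of the Z-disc and its links, 7 of calcium handling, 2 natriuretic peptides and 5 other muscle genes.

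OFTs were dissected at embryonic day (E) 11.5, and each library was made from polyadenylated RNA of several OFTs pooled together. The labels number the 3 control pools (WT) as replicates 3, 4 and 5, and the 4 mutant pools (MUT) as replicates 1, 3, 4 and 5. The mutant embryos were *Gata6*STOP/+, that is, they carried a premature stop codon in exon 2 of 1 copy of *Gata6* in all their cells. *Gata6* encodes a zinc finger transcription factor of heart and endoderm progenitors. The study's methods describe 3 pools of 4 pairs of OFTs for each genotype, while the labels list 4 mutant pools, and every labelled pool was used here. The line goes back to 1 founder made by CRISPR-Cas9 editing and was crossed to C57BL/6 mice, so both genotypes share that background. The study's list of reagents also names a *Mib1* mutant background for the injected embryos, and whether such alleles remained in either group is not given in the sources used here. The sex of the embryos and the days of dissection or library preparation are not given in the sources used here. Nothing in the labels says that the pools came from separate litters, so *P*-values measure the spread between these pools, which may be partly technical.

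Values are CPM, that is, reads per gene relative to a library size that the authors adjusted by TMM, a scaling under which most genes are taken to be equal between samples. Control pools held 17783655 to 29035529 reads on the listed genes, and mutant pools held 24736761 to 34467710. Pairwise correlations of log2(CPM + 0.5) between pools ran from 0.985 to 0.992. Below, the 3 control values of a gene always stand in the order of replicates 3, 4 and 5 and the 4 mutant values in the order of replicates 1, 3, 4 and 5. *Gata6* itself had 315, 257 and 286 CPM in the control pools and 268, 203, 219 and 217 CPM in the mutant pools, a log2 fold change of -0.34 ± 0.10 (SE, adjusted P = 0.389, limma). Its value in mutant replicate 1 was above that of control replicate 4, so the gene does not part the pools by genotype. The study's own edgeR test did call *Gata6* lower in mutant OFTs, and its quantitative PCR also found a reduced level. Log2 fold changes are mutant minus control on the log2(CPM + 0.5) scale, which understates differences of genes with few reads, and are given with their SE and with *P*-values adjusted over all 14732 genes. A pair of pools stood apart for the genes described here, mutant replicate 1 (low in most of them) and control replicate 4 (high in the natriuretic peptides), and results that rest on them are given with and without them. *Xist*, the RNA of the inactive X chromosome of females, was at 1.30 CPM in mutant replicate 4 and at 157 to 662 CPM elsewhere. Of the 46 members, 38 had at least 1000 reads in every pool, whereas *Sln*, *Ckm*, *Nppa*, *Myom2* and *Nppb* had under 200 reads in at least 1 pool. The fewest were 67 reads, for *Sln* in control replicate 4.

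Cardiomyocytes shorten when myosin of the thick filament pulls on actin of the thin filament, within sarcomeres that are bounded by Z-discs and spanned by the giant protein titin. Each beat starts with calcium entering the cell and leaving the sarcoplasmic reticulum through the ryanodine receptor. Calcium then binds troponin, which frees the actin filament for myosin, and it is pumped back by the calcium ATPase SERCA2, which phospholamban and sarcolipin restrain. The OFT wall is myocardial at this stage, and embryonic heart muscle transcribes cardiac, atrial, ventricular and slow skeletal forms of the same proteins together. The natriuretic peptides are hormones of the atria and of the embryonic chamber myocardium.

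The genotypes overlapped for the contractile genes as a whole, 1 mutant pool was low in most of them, and the natriuretic peptides were the members that varied most between pools. The 46 members took 4.05%, 4.09% and 3.75% of the reads in the control pools and 3.05%, 4.33%, 3.87% and 3.79% in the mutant pools. The score of a pool, which is the mean log2(CPM + 0.5) over the members, was 8.10, 8.24 and 8.04 in the control pools and 7.64, 8.23, 8.03 and 8.04 in the mutant pools. Mutant replicate 1 was thus below every other pool, and the remaining 6 pools lay between 8.03 and 8.24 regardless of genotype. Without the natriuretic peptides the scores of the other 44 members were 8.27, 8.31 and 8.22 against 7.89, 8.42, 8.26 and 8.24. The difference of the mean scores was -0.14 over all pools and -0.02 without mutant replicate 1. In these bulk samples, fewer cardiomyocytes and less of each RNA per cardiomyocyte cannot be told apart.

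By role, mutant replicate 1 was the lowest of the 7 pools in each of the 6 groups of genes. Relative to the mean of the 3 other mutant pools its score was lower by a log2 difference of -0.34 for the thick filament and titin, -0.50 for the thin filament, -0.48 for the Z-disc and -0.23 for calcium handling. For the natriuretic peptides the same difference was -1.54, and for the other muscle genes it was -0.50. Calcium handling genes therefore deviated least in this pool and natriuretic peptides most. The roles also differ in gene length, which the deviation followed, as given further below. *Ryr2* and *Slc8a1* have 18230 and 18620 bases of annotated exons, *Nppa* and *Nppb* 865 and 781. Whether role matters apart from length was not tested. In 38 of the 46 members mutant replicate 1 held the lowest value of all pools, compared with 19.7% of all genes. In the opposite direction, mutant replicate 3 held the highest value in 24 members, compared with 15.5% of all genes, and control replicate 4 did so in 13, compared with 11.9%.

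**Figure D1:**
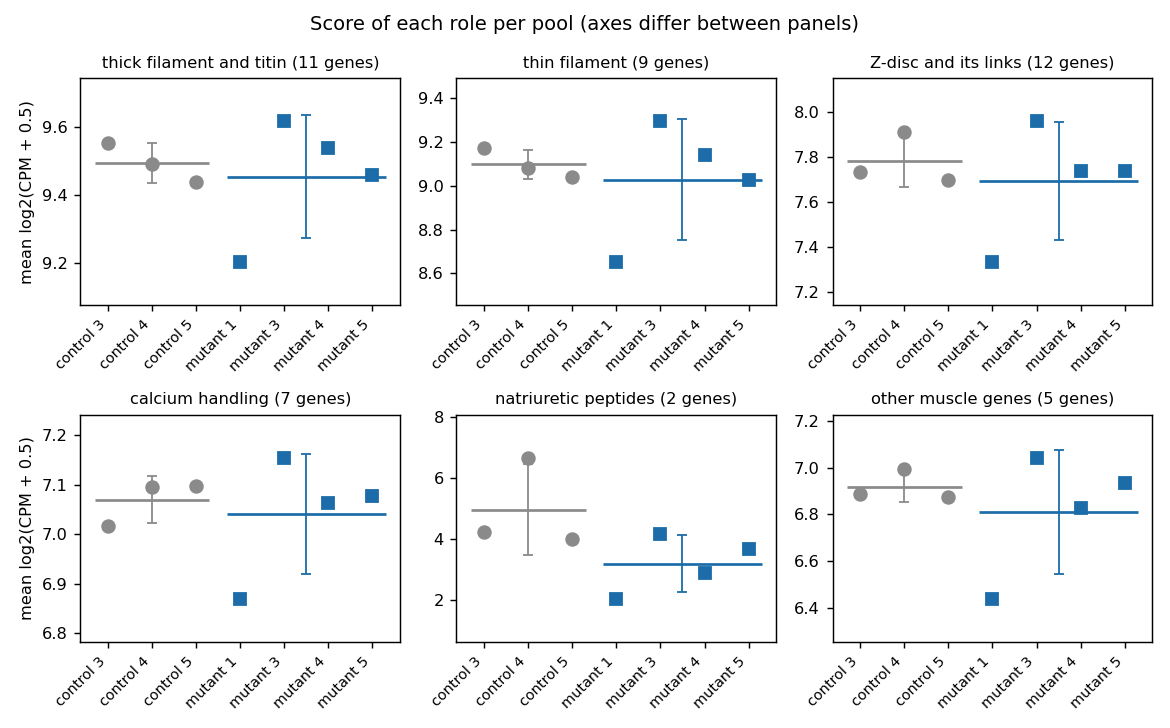
Score of each of the 6 roles (y axis, mean log2(CPM + 0.5) over the genes of the role) in each of the 7 pools (x axis, grey circles control and blue squares *Gata6*STOP/+), with the mean of each genotype as a horizontal line and the SD as a bar. Mutant replicate 1 is the lowest point in all 6 panels, and control replicate 4 stands above the rest for the natriuretic peptides, at 6.66.

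No member passed the main test. Limma called 0 of the 46 members at an adjusted P under 0.05, compared with 0 of all 14732 genes (0%). At an unadjusted P under 0.05, 2 members were higher in the mutant pools (*Mybpc1* and *Casq2*), compared with 4.17% of all genes, and 5 were lower (*Myl3*, *Tnni1*, *Nppa*, *Nppb* and *Ckm*), compared with 3.88%. The groups did not overlap in 1 member above (*Mybpc1*), compared with 4.31% of all genes, and in 1 below (*Tnni1*), compared with 4.16%. The median log2 fold change of the members was -0.08, with 30 lower and 16 higher, compared with a median of -0.001 and 7393 lower genes among all 14732. Without mutant replicate 1 the median was 0.03, with 18 members lower and 28 higher. Of the other tests on the recovered reads, edgeR's likelihood ratio test called 1 member, *Mybpc1*, compared with 0.713% of all genes, and DESeq2 called the same member, compared with 0.597%. EdgeR's quasi-likelihood test called 0 members and 0 genes.

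**Figure D2:**
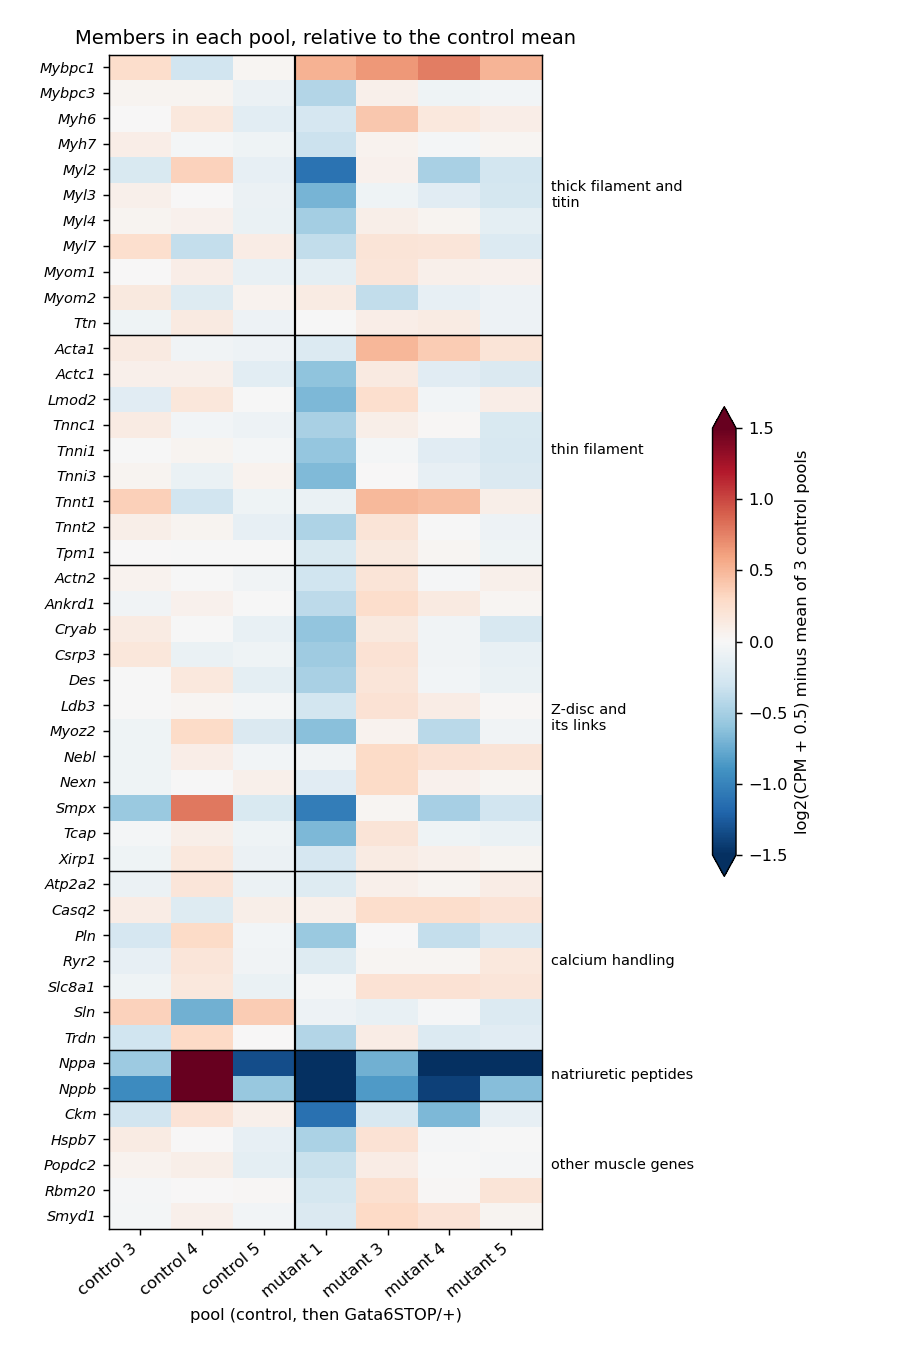
Value of each of the 46 members (rows, grouped by role) in each of the 7 pools (columns), as log2(CPM + 0.5) minus the mean of the 3 control pools, with red above and blue below the control mean and colours saturated beyond 1.5. The column of mutant replicate 1 is blue for most members, *Mybpc1* is red in all 4 mutant pools, and *Nppa* and *Nppb* are saturated red in control replicate 4.

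Thick filament. The myosin heavy chains are the motors of the sarcomere, *Myh7* encoding the slow beta chain and *Myh6* the faster alpha chain. *Myh7* took the most reads of all members, not corrected for length, at 9585, 8742 and 8539 CPM in the control pools and 7155, 9241, 8735 and 9160.4 CPM in the mutant pools. *Myh6* was at 1704, 1902 and 1519 CPM and 1430.0, 2258, 1891 and 1824 CPM. Both genes overlapped between genotypes, with log2 fold changes of -0.07 ± 0.14 for *Myh7* (adjusted P = 0.930, limma) and 0.10 ± 0.14 for *Myh6* (adjusted P = 0.891). They lie side by side on the minus strand of chromosome 14, at chr14:54941921-54966927 (*Myh6*) and chr14:54970684-54994626 (*Myh7*) of GRCm38. Of all stretches of 60 bases in the annotated *Myh6* transcripts, 16.9% also occur in *Myh7*, and 13.1% of those of *Myh7* occur in *Myh6*, so reads from the shared stretches may have been divided between them and the separate values are uncertain to that extent.

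The light chains bind the neck of myosin, and each chamber of the heart has its own set. *Myl2*, the ventricular regulatory light chain, was at 1199.7, 1784 and 1283 CPM in the control pools and 652, 1461, 1001 and 1158 CPM in the mutant pools. It was highest in control replicate 4 and lowest in mutant replicate 1, and mutant replicate 3 exceeded control replicates 3 and 5. Its log2 fold change was -0.45 ± 0.23 (adjusted P = 0.673, limma), -0.23 without mutant replicate 1 and -0.28 without control replicate 4. *Myl7*, the atrial counterpart, had its lowest control value in that same control replicate 4 (1601, 1049 and 1455 CPM, against 1039, 1541, 1529 and 1172 CPM in the mutant pools), and its log2 fold change was -0.05 ± 0.17 (adjusted P = 0.961). The ratio of *Myl2* to *Myl7* was 0.749, 1.70 and 0.882 in the control pools and 0.627, 0.948, 0.655 and 0.988 in the mutant pools, so control replicate 4 was set apart by both genes in opposite directions.

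Of the essential light chains, *Myl3* encodes the ventricular and slow skeletal form and *Myl4* the atrial and embryonic form. *Myl3* was at 1301, 1234 and 1158 CPM in the control pools and 755, 1177, 1091 and 1022 CPM in the mutant pools, and only mutant replicate 3 reached into the control range. Its log2 fold change was -0.30 ± 0.13 (adjusted P = 0.601, limma) and -0.17 without mutant replicate 1. *Myl4* was at 1332, 1354 and 1205 CPM and 908, 1379, 1336 and 1167 CPM. The ratio of *Myl3* to *Myl4* within a pool was 0.976, 0.912 and 0.961 in the control pools and 0.832, 0.853, 0.817 and 0.876 in the mutant pools, with every mutant pool below every control pool. This pair of genes, like the other pairs set in ratio here, was chosen after the values were seen, and the ratios were not tested. Of 10 ratios formed, the groups did not overlap in *Myl3* to *Myl4*, *Mybpc1* to *Mybpc3* and *Acta1* to *Actc1*. They overlapped in the rest, among them *Myh6* to *Myh7*, *Tnnt1* to *Tnnt2*, *Nppa* to *Nppb* and *Casq2* to *Ryr2*, whose values are not printed.

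*Mybpc1* stood apart from every other member. It encodes the slow skeletal form of myosin binding protein C, which links myosin to titin, whereas the heart's own form is encoded by *Mybpc3*. *Mybpc1* (ENSMUSG00000020061, minus strand, chr10:88518279-88605152) was at 72.9, 49.6 and 61.8 CPM in the control pools and 87.7, 95.3, 104 and 86.4 CPM in the mutant pools. All 4 mutant pools were above all 3 control pools, including mutant replicate 1, in which nearly every other member was low. The means were 61.4 ± 11.7 CPM (SD, n = 3) and 93.3 ± 8.01 CPM (SD, n = 4), and the log2 fold change was 0.61 ± 0.12, with an adjusted P of 0.186 in limma. The call depended on the test: the adjusted P was 0.198 with edgeR's quasi-likelihood test, 0.000952 with its likelihood ratio test and 0.000436 with DESeq2, and it ran from 0.000389 to 0.549 over all alternatives. The log2 fold change was 0.47 without control replicate 4, where *Mybpc1* was lowest.

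*Mybpc3* did not share this pattern, at 1497, 1497 and 1374 CPM in the control pools and 1069.9, 1528, 1395 and 1415 CPM in the mutant pools (log2 fold change -0.12 ± 0.12, adjusted P = 0.832, limma). Taken per length of annotated exons, which are 3981 bases in *Mybpc1* and 4163 in *Mybpc3*, the control level was 15.4 CPM per kb for *Mybpc1* and 349.8 CPM per kb for *Mybpc3*, so the skeletal form was the minor one in both genotypes. The ratio of the CPM of *Mybpc1* to *Mybpc3* was 0.0487, 0.0331 and 0.0450 in the control pools and 0.0819, 0.0624, 0.0743 and 0.0611 in the mutant pools. The highest ratio was in mutant replicate 1, where *Mybpc3* was low.

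Titin, encoded by *Ttn*, runs from the Z-disc to the middle of the sarcomere and acts as its spring. *Ttn* was at 1984, 2271 and 1963 CPM in the control pools and 2055, 2209, 2248 and 1962 CPM in the mutant pools, a log2 fold change of 0.03 ± 0.09 (adjusted P = 0.952, limma). In mutant replicate 1 it was within the range of the other pools, unlike the light chains. The M-band genes, whose products crosslink thick filaments, were *Myom1* at 518 to 647 CPM and *Myom2* at 3.88 to 5.75 CPM over the 7 pools. *Myom2* was the only member of the sarcomere groups for which mutant replicate 1 exceeded the other mutant pools, by 0.31 on the log2 scale.

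The stretches of DNA just before the start of these genes were read from RefSeq (GRCm38.p6), to show the letters that the cardiac GATA, SRF and MEF2 factors are known to bind. Motifs were searched on both strands, from 250 bases before to 50 after each annotated start: GATA as AGATAA with T also allowed as its first and G as its last letter, the CArG box by its name (the SRF site), the MEF2 site by its name, MCAT as CATTCC, and TATAAA. Of the 46 members, 37 had at least 1 such window, and they had 46 windows in all. A GATA match stood in 43.5% of the members' windows, compared with 29.8% of all 32851 windows. The CArG box was found in 17.4% of the members' windows against 1.63% of all, the MEF2 site in 8.7% against 1.86%, MCAT in 30.4% against 14.7% and TATAAA in 19.6% against 13.6%. These shares describe letters and not binding. The 200 bases before the start of *Mybpc1* (chr10:88605153-88605352, minus strand), the member that stood apart, and of *Myl7* (chr11:5898783-5898982, minus strand) are given here with GATA and CArG matches in capitals.
Mybpc1: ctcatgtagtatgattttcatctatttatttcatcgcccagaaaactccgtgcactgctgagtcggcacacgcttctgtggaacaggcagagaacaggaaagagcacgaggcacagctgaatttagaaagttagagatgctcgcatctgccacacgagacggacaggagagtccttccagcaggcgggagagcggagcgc
Myl7: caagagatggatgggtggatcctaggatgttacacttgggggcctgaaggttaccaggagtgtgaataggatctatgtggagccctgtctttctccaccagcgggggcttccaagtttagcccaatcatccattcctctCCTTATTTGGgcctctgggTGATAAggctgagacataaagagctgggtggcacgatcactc
No GATA or CArG match was found in the stretch of *Mybpc1*. In *Myl7* a CArG box lies 61 to 52 bases before the start and a GATA match 42 to 37 bases before it.

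Thin filament. *Actc1* encodes cardiac alpha-actin, which forms most of the thin filament in heart, and *Acta1* the skeletal alpha-actin that embryonic hearts also transcribe. *Actc1* was at 5942, 5939 and 5036 CPM in the control pools and 3688, 6186, 5013 and 4846 CPM in the mutant pools. *Acta1* was at 374, 330.2 and 323 CPM and 296, 484, 447 and 392 CPM, and mutant replicates 3, 4 and 5 were above all control pools while mutant replicate 1 was below them. The log2 fold changes were -0.21 ± 0.17 for *Actc1* (adjusted P = 0.790, limma) and 0.22 ± 0.14 for *Acta1* (adjusted P = 0.742). Without mutant replicate 1 they were -0.08 and 0.36.

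Within each pool, the ratio of *Acta1* to *Actc1* was 0.0629, 0.0556 and 0.0641 in the control pools and 0.0801, 0.0783, 0.0891 and 0.0809 in the mutant pools. Every mutant pool was above every control pool, and mutant replicate 1, which was low in both genes, lay within the range of the other mutant pools. The log2 difference of the mean ratios was 0.43. No stretch of 60 bases is shared by the annotated transcripts of *Acta1* and *Actc1*. The 200 bases before the start of both genes, *Actc1* at chr2:114052876-114053075 and *Acta1* at chr8:123894776-123894975, both on the minus strand, each hold 1 CArG box, given in capitals. Both starts are those of RefSeq, and the outermost start of *Actc1* in GENCODE lies 673 bases further upstream, so the stretch shown is within the GENCODE gene.
Actc1: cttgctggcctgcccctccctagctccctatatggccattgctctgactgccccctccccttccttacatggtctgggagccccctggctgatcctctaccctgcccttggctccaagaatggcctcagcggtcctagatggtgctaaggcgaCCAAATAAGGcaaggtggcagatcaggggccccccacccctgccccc
Acta1: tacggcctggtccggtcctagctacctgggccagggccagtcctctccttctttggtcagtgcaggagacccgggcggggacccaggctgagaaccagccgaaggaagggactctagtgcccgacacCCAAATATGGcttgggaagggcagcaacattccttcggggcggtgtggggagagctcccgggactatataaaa
The box lies 47 to 38 bases before the start in *Actc1* and 73 to 64 bases before it in *Acta1*, and it differs between the genes in its letters.

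The troponins are the calcium switch on the thin filament. *Tnni1*, the slow skeletal inhibitory subunit that embryonic heart uses before the cardiac form, was the only member in which all mutant pools were below all control pools. It was at 932, 966 and 917 CPM in the control pools and 628, 916, 831 and 795 CPM in the mutant pools, with mutant replicate 3 just below the lowest control value. Its log2 fold change was -0.26 ± 0.11 (adjusted P = 0.598, limma) and -0.15 without mutant replicate 1. The cardiac form *Tnni3* was at 255, 231 and 256 CPM and 155, 248, 226 and 212 CPM, a log2 fold change of -0.25 ± 0.13 (adjusted P = 0.677). The ratio of *Tnni3* to *Tnni1*, which reflects the balance of the cardiac and the slow skeletal form, was 0.273, 0.239 and 0.280 in the control pools and 0.247, 0.271, 0.273 and 0.267 in the mutant pools, within the same range.

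*Tnnt2*, the cardiac tropomyosin-binding subunit, was at 1705, 1661 and 1474 CPM in the control pools and 1164, 1841, 1606 and 1528 CPM in the mutant pools, a log2 fold change of -0.09 ± 0.14 (adjusted P = 0.901, limma). *Tnnt1*, the slow skeletal form of the same subunit, was at 96.3, 61.2 and 71.7 CPM and 69.9, 105, 103 and 79.5 CPM. The log2 fold change of *Tnnt1* was 0.23 ± 0.17 (adjusted P = 0.779) and 0.34 without mutant replicate 1, with control replicates 3 and 5 inside the mutant range. The 3 remaining genes of the group were lower on average in the mutant pools, with log2 fold changes of -0.15 for *Tnnc1*, which encodes the calcium-binding troponin C, -0.09 for *Lmod2*, whose product lengthens thin filaments, and -0.03 for the tropomyosin gene *Tpm1*. Relative to its mean, *Tpm1* had the least spread of all members between control pools, at 1902 ± 11.00 CPM (SD, n = 3).

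Z-disc. The 12 genes of the Z-disc and its links had a median log2 fold change of -0.06, with 8 lower and 4 higher, and 0.05 without mutant replicate 1. *Actn2*, the alpha-actinin that crosslinks actin at the Z-disc, was at 997, 959 and 928 CPM in the control pools and 779, 1098, 951 and 1013 CPM in the mutant pools. The log2 fold change of *Actn2* was -0.01 ± 0.11 (adjusted P = 0.985, limma). *Ankrd1*, which encodes a stretch-sensing partner of titin, was at 655, 712 and 676 CPM and 517, 815, 747 and 695 CPM, with a log2 fold change of 0.01 ± 0.13 (adjusted P = 0.993). *Xirp1*, which encodes an actin-binding protein of the junctions between cardiomyocytes, was at 191, 223 and 187 CPM and 168, 218, 211 and 206 CPM, a log2 fold change of -0.00 ± 0.10 (adjusted P = 0.997). In all 3 genes mutant replicate 1 was the lowest pool and mutant replicates 3, 4 and 5 lay within or above the control range.

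*Des* encodes desmin, the intermediate filament that ties Z-discs together. It was at 556, 625 and 505 CPM in the control pools and 399, 634, 543 and 521 CPM in the mutant pools, a log2 fold change of -0.11 ± 0.13 (adjusted P = 0.865, limma). *Csrp3*, which encodes the muscle LIM protein, was at 422, 349.8 and 358 CPM and 258, 436, 361 and 348 CPM, a log2 fold change of -0.12 ± 0.14 (adjusted P = 0.867). *Myoz2*, encoding a calcineurin-binding protein of the Z-disc, was at 27.6, 35.3 and 24.9 CPM and 18.5, 30.00, 21.8 and 27.8 CPM, a log2 fold change of -0.26 ± 0.17 (adjusted P = 0.741). *Des* also marks smooth muscle, as does *Ldb3*, and without both genes the members' median log2 fold change was again -0.08.

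Of the remaining Z-disc genes, *Smpx* varied most. *Smpx*, an X-linked gene for a small muscle protein, was at 50.7, 130.1 and 63.9 CPM in the control pools and 36.3, 76.8, 52.8 and 61.5 CPM in the mutant pools, so that control replicate 4 exceeded the mean of the other control pools by 1.185 on the log2 scale. Its mean log2 fold change of -0.45 was -0.05 without that pool. *Nebl*, which encodes nebulette, was at 315, 354 and 319.8 CPM and 319, 400.3, 384 and 376 CPM and had the highest log2 fold change of the group, at 0.16. *Ldb3*, *Nexn*, *Cryab* and *Tcap*, which encode a PDZ-LIM protein, an actin-binding protein, a chaperone of desmin and a titin cap, had log2 fold changes from -0.18 (*Cryab*) to 0.05 (*Nexn*).

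Calcium handling. These 7 genes had a median log2 fold change of 0.01, the nearest to 0 of all roles, with 3 lower and 4 higher. *Ryr2*, the calcium release channel, was at 167, 206 and 175 CPM in the control pools and 159.7, 186, 185 and 203 CPM in the mutant pools. *Atp2a2*, which encodes SERCA2, was at 1035, 1257 and 1036 CPM and 968, 1169, 1133 and 1197 CPM. The genotype means were close in both genes, with log2 fold changes of 0.01 ± 0.09 for *Ryr2* (adjusted P = 0.990, limma) and 0.01 ± 0.10 for *Atp2a2* (adjusted P = 0.985). *Slc8a1*, the sodium-calcium exchanger that extrudes calcium, was at 811, 942 and 792 CPM and 828, 985, 979 and 959 CPM. Its log2 fold change was 0.14 ± 0.09 (adjusted P = 0.736), with 3 of the mutant pools above all control pools and mutant replicate 1 within them.

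Of the genes for SERCA2's inhibitors, *Pln* was at 324, 469 and 375 CPM in the control pools and 262, 386, 299 and 326 CPM in the mutant pools. Control replicate 4 was again the highest pool and mutant replicate 1 the lowest, and the log2 fold change was -0.29 ± 0.14 (adjusted P = 0.649, limma), -0.20 without mutant replicate 1 and -0.14 without control replicate 4. The ratio of *Pln* to *Atp2a2*, inhibitor to pump, was 0.313, 0.373 and 0.362 in the control pools and 0.271, 0.330, 0.264 and 0.272 in the mutant pools, where only mutant replicate 3 reached the control range. *Sln*, the atrial inhibitor, was near the low end of the table at 5.42, 2.31 and 5.54 CPM and 3.89, 3.80, 4.11 and 3.52 CPM, with a log2 fold change of -0.10 ± 0.24 (adjusted P = 0.939). Control replicate 4 was the lowest of all pools in *Sln* and the lowest control pool in *Myl7*, both of them genes known from the atria. Other atrial genes went the opposite way, since the same pool was the highest control pool in *Myl4* and the highest of all pools in *Nppa*.

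Calsequestrin and triadin hold calcium beside the release channel. *Casq2* was at 60.7, 48.99 and 60.03 CPM in the control pools and 59.4, 67.4, 67.7 and 65.2 CPM in the mutant pools. Mutant replicates 3, 4 and 5 were above all control pools, and mutant replicate 1 lay just below control replicates 3 and 5. The log2 fold change of *Casq2* was 0.20 ± 0.08 (adjusted P = 0.584, limma) and 0.10 without control replicate 4, the lowest pool. *Trdn* was at 36.3, 55.4 and 45.1 CPM and 33.1, 48.7, 38.8 and 39.8 CPM, with control replicate 4 as the highest pool. Mutant replicate 1 was less low in the calcium handling genes than in the other roles, with deviations of -0.35 to 0.03 from the other mutant pools on the log2 scale. Several of these genes are long, and the part of gene length in this was not tested.

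Natriuretic peptides. *Nppa* and *Nppb*, which encode the precursors of the atrial and the B-type natriuretic peptide, had the largest differences between genotypes and the largest spread within them. *Nppa* was at 32.1, 174 and 18.3 CPM in the control pools and 3.26, 28.3, 6.63 and 11.8 CPM in the mutant pools. *Nppb* was at 10.2, 58.1 and 13.3 CPM and 3.999, 10.9, 7.28 and 12.7 CPM. In both genes control replicate 4 was far above all other pools, by 2.82 (*Nppa*) and 2.27 (*Nppb*) on the log2 scale relative to the other control pools, and mutant replicate 1 was the lowest. The remaining pools overlapped between genotypes.

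The means of *Nppa* were 74.7 ± 86.05 CPM (SD, n = 3) in the control pools and 12.5 ± 11.1 CPM (SD, n = 4) in the mutant pools, so the SD of the control group exceeded its mean. The log2 fold change of *Nppa* was -2.27 ± 0.75 (adjusted P = 0.455, limma). It was -1.33 without control replicate 4, -1.80 without mutant replicate 1 and -0.86 without both, with adjusted P between 0.0729 and 0.734 over all alternatives. For *Nppb* the log2 fold change was -1.27 ± 0.52 (adjusted P = 0.575), and it was -0.52 without control replicate 4 and -0.21 without both pools, with adjusted P between 0.155 and 0.896 over all alternatives. The depth was enough to measure the low pools, since *Nppa* had 93 reads in mutant replicate 1 and 5036 in control replicate 4.

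Other genes of the cardiac chambers were also highest in control replicate 4. *Bmp10*, a growth factor of trabecular myocardium, was at 6.14, 66.5 and 11.3 CPM in the control pools and 0.631, 5.69, 1.75 and 5.79 CPM in the mutant pools. *Cited1* was at 25.9, 143 and 37.5 CPM and 11.2, 39.3, 23.6 and 39.4 CPM, and *Irx4*, a transcription factor of ventricles, at 19.5, 36.1 and 27.9 CPM and 8.73, 25.9, 15.6 and 20.6 CPM. In these 3 genes control replicate 4 was the highest pool and mutant replicate 1 the lowest. The gap junction genes *Gja1* and *Gja5* were also highest in control replicate 4, at 182 and 40.1 CPM, but lowest in control replicate 3, at 61.9 and 16.0 CPM. These 5 genes were chosen after their values were seen. How much chamber tissue each pool held was not tested.

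**Figure D3:**
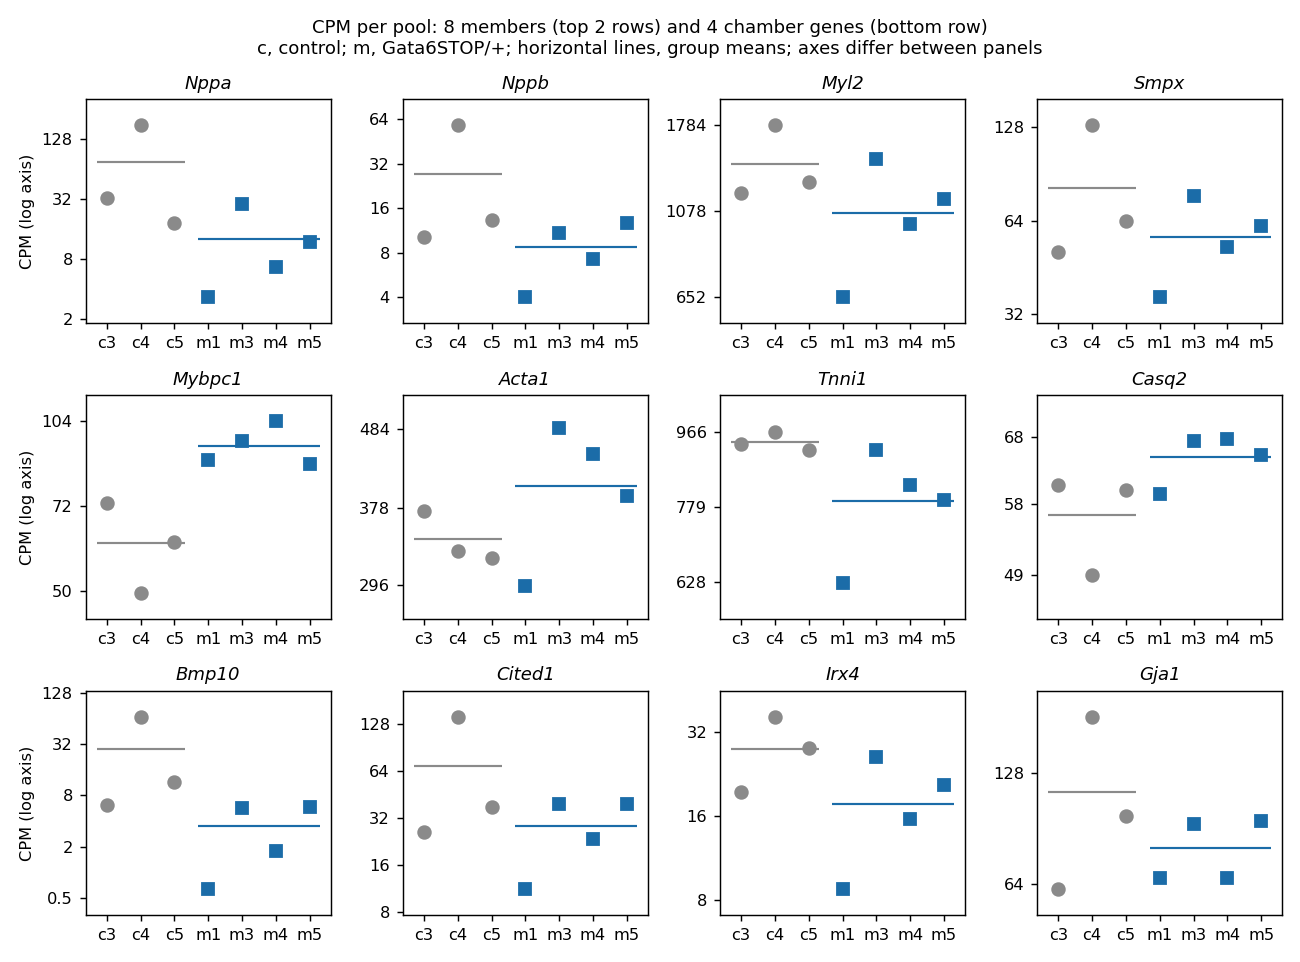
CPM on a log axis (y) of 8 members and 4 chamber genes in each of the 7 pools (x, c for control and m for *Gata6*STOP/+, with replicate numbers), grey circles for control and blue squares for mutant pools, and horizontal lines for the group means. Control replicate 4 is the top point for *Nppa*, *Nppb*, *Myl2*, *Smpx* and the 4 chamber genes, whereas the 4 mutant points of *Mybpc1* all lie above its 3 control points.

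The peptide genes are neighbours on the plus strand of chromosome 4, *Nppb* at chr4:147985788-147987205 and *Nppa* at chr4:148000722-148002079 of GRCm38. Their upstream stretches are shown because GATA factors are known to act on both genes, at chr4:147985700-147985899 for *Nppb* and chr4:148000522-148000721 for *Nppa*, with GATA matches in capitals. The starts are those of RefSeq, and for *Nppb* that start lies 112 bases inside the GENCODE gene given above, so both of its matches lie within that gene's outermost bounds.
Nppa: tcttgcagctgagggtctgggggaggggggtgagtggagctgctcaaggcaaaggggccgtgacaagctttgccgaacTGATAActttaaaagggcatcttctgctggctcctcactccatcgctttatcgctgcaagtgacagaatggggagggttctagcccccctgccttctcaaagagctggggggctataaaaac
Nppb: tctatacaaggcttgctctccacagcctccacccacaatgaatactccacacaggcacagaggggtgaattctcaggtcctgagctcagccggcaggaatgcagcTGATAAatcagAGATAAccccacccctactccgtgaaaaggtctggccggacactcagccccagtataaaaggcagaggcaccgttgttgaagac
*Nppa* has 1 match, 122 to 117 bases before the start, and *Nppb* has a pair, 95 to 90 and 84 to 79 bases before it. Such matches are common: they were found in 19 of the 37 members with a window, among them *Myh6*, *Myl2*, *Tnnt2*, *Pln* and *Slc8a1*.

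Other genes of the natriuretic pathway came from a list of 7 names for the receptors, the proteases that cut the precursors and the C-type peptide. Of these, 6 were listed, 4 of them lower and 2 higher, and none passed limma's adjusted test. *Npr3*, the receptor that clears the peptides, had its highest value in control replicate 4 and its lowest in mutant replicate 1, as *Nppa* and *Nppb* did, at 39.6, 100.1 and 44.5 CPM in the control pools and 34.2, 45.4, 35.96 and 46.8 CPM in the mutant pools (log2 fold change -0.48, adjusted P = 0.694, limma). *Pcsk6*, one of the proteases, was at 51.7, 56.7 and 55.2 CPM in the control pools and 43.01, 48.1, 44.6 and 49.3 CPM in the mutant pools. All its mutant pools were below all control pools, as in 4.16% of all genes (log2 fold change -0.24, adjusted P = 0.393, limma).

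Other muscle genes. *Ckm*, the muscle creatine kinase, was at 5.85, 8.38 and 7.67 CPM in the control pools and 3.05, 6.01, 4.35 and 6.57 CPM in the mutant pools, a log2 fold change of -0.54 ± 0.23 (adjusted P = 0.581, limma) and -0.35 without mutant replicate 1. The genotypes overlapped in mutant replicates 3 and 5. *Hspb7*, a small heat shock protein of the sarcomere, and *Popdc2*, a membrane protein that binds cyclic AMP, had log2 fold changes of -0.07 and -0.06. *Rbm20*, which controls the splicing of titin, and *Smyd1*, a muscle-specific methyltransferase, were at 0.05 and 0.08. The mean of *Rbm20* in the control pools was 73.5 ± 0.957 CPM (SD, n = 3).

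**Figure D4:**
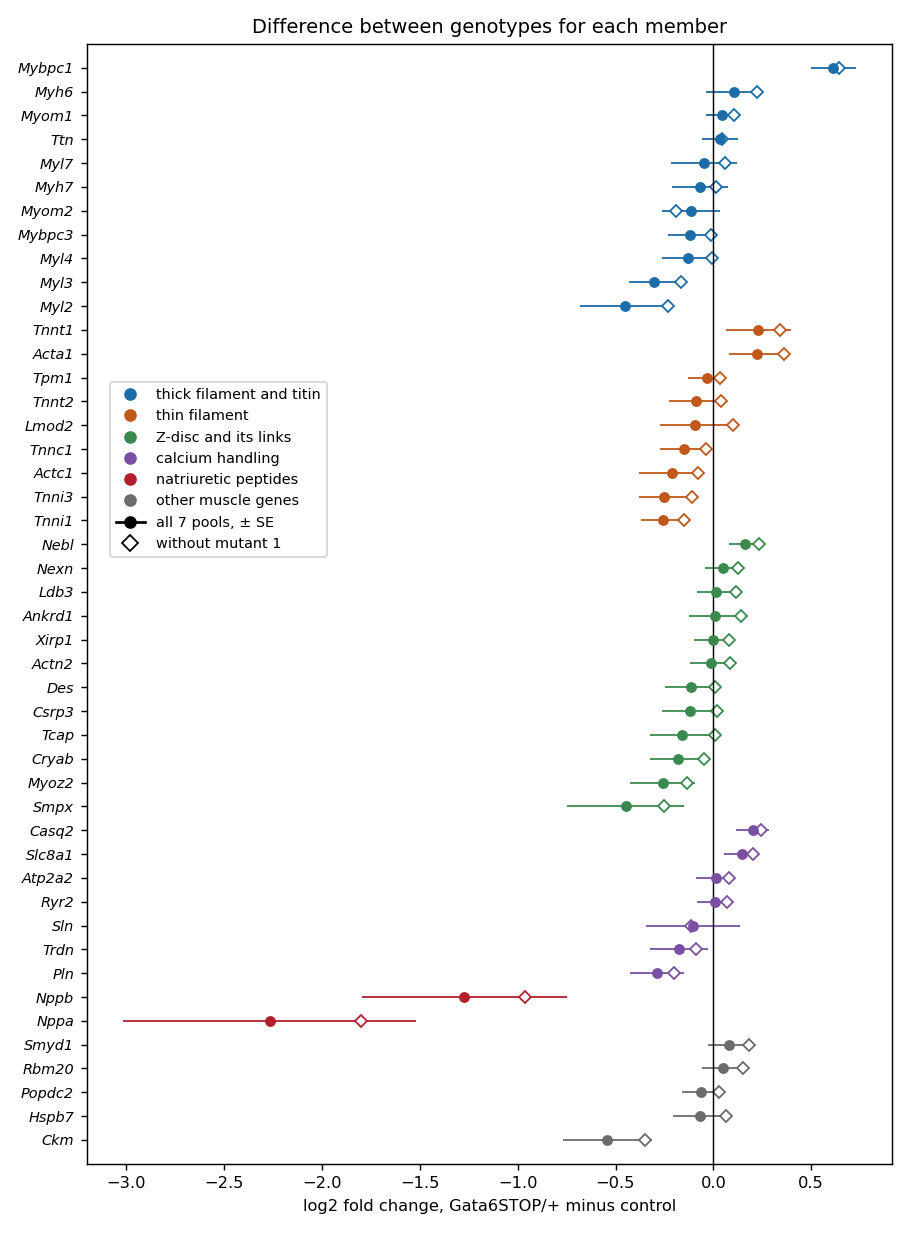
Log2 fold change (x axis, *Gata6*STOP/+ minus control on the log2(CPM + 0.5) scale) of each of the 46 members (y axis, coloured by role), with filled circles and SE bars for all 7 pools and open diamonds for the same difference without mutant replicate 1. The diamonds lie to the right of the circles for nearly all members, *Mybpc1* is farthest to the right at 0.61, and *Nppa* farthest to the left at -2.27.

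Since mutant replicate 1 was low for the programme as a whole, each member was also set against 6 anchor genes of its own pool (*Tnnt2*, *Actc1*, *Actn2*, *Ttn*, *Mybpc3* and *Myl7*), leaving 40 members. The mean log2 value of the anchors was 10.90, 10.81 and 10.76 in the control pools and 10.46, 10.97, 10.83 and 10.73 in the mutant pools. Relative to them, all mutant pools were above all control pools in 5 members (*Ldb3*, *Nebl*, *Smyd1*, *Mybpc1* and *Acta1*), compared with 2.85% of 14726 genes, and below in 3 (*Myl3*, *Tnni1* and *Tnni3*), compared with 0.917%. Without this scaling the shares of all genes were 4.31% and 4.16%. Subtracting the anchors takes their spread out of genes that follow them and adds it to genes that do not. The lower shares are therefore not a like background for the members. *Acta1* was at -2.35, -2.44 and -2.42 on this relative log2 scale in the control pools and -2.25, -2.05, -2.03 and -2.12 in the mutant pools, a difference of 0.30. *Myl3* was at -0.55, -0.54 and -0.58 and -0.89, -0.77, -0.74 and -0.74, a difference of -0.23. *Tnni1* was at -1.03, -0.90 and -0.92 and -1.16, -1.13, -1.13 and -1.10, a difference of -0.18. The difference was 0.24 for *Nebl*, 0.16 for *Smyd1*, 0.09 for *Ldb3* and -0.18 for *Tnni3*. This scaling was added after the values were seen.

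With the anchors' mean as a covariate in limma, the adjusted test called 0 of these 40 members, and the lowest adjusted P was 0.0857, for *Acta1*. At an unadjusted P under 0.05 this fit had 8 members higher, compared with 4.68% of all genes, and 4 lower, compared with 4.42%. These shares are not a like background either, since the anchors are members too. The higher members were *Acta1*, *Mybpc1*, *Nebl*, *Casq2*, *Tnnt1*, *Smyd1*, *Slc8a1* and *Myh6*, and the lower ones *Myl3*, *Tnni1*, *Nppa* and *Tnni3*. Of 12 markers of skeletal muscle precursors, 10 were not listed in the table, *Myod1*, *Myog*, *Myf5* and *Pax7* among them, and the listed ones were *Tnnt3* and *Tcf21*.

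The deviation of mutant replicate 1 followed gene length among the members. Over the 46 members, Spearman's rho between annotated exonic length and the log2 value of mutant replicate 1 minus the mean of the other mutant pools was 0.68, and over 11621 genes averaging 5 CPM or more it was 0.31. Genes are not independent and all points share 1 library, so these values are descriptions. Mutant replicate 3 had the opposite sign, at -0.60 over the members and -0.37 over all of those genes. Each pool is set against the other pools of its group, so an opposite sign in some other mutant pool is partly built in. The 19 members of up to 1500 bases had a median deviation of -0.54 in mutant replicate 1 and a median log2 fold change between genotypes of -0.18, with 17 lower. The 8 members of over 6000 bases, *Ttn*, *Ryr2* and *Slc8a1* among them, had a median deviation of -0.31 and a median log2 fold change of 0.02, with 2 lower. Genes outside the list moved the same way but less, from a median deviation of -0.10 up to 1500 bases to 0.07 over 6000 bases. RNA quality values are not given in the sources used here, and what lies behind the relation was not tested.

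**Figure D5:**
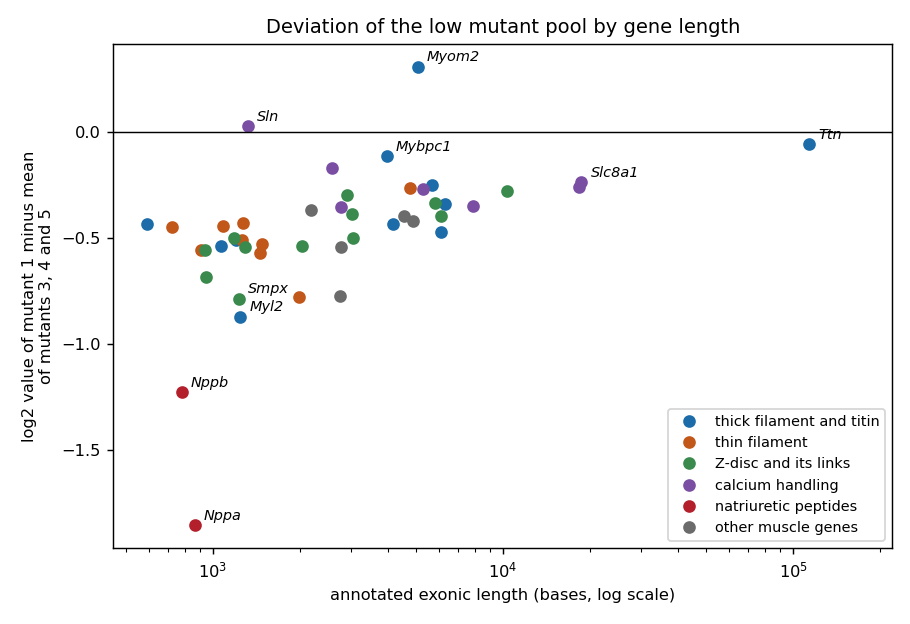
Log2 value of mutant replicate 1 minus the mean of mutant replicates 3, 4 and 5 (y axis) against annotated exonic length in bases (x axis, log scale) for the 46 members, coloured by role. Short members such as *Nppa*, *Nppb* and *Myl2* lie lowest, whereas *Ttn*, at 113588 bases, lies near 0.

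Levels were compared between members per length, as CPM per kb of annotated exons. In the control pools *Actc1* was highest at 3828 CPM per kb, followed by *Myl7* at 2319, *Myh7* at 1419 and *Tnnt2* at 1278. The 3 light chain genes *Myl3*, *Myl2* and *Myl4* came next, at 1154, 1144 and 1079 CPM per kb, and their control ranges of CPM overlapped. At the other end were *Sln* at 3.36, *Ckm* at 2.66 and *Myom2* at 1.02 CPM per kb. The beta myosin gene thus exceeded the alpha form, and among actins the cardiac form exceeded the skeletal, at 237 CPM per kb for *Acta1*. The long genes *Ttn* and *Ryr2* were at 18.2 and 10.03 CPM per kb despite their high CPM.

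The genes whose values ran most like the mean of the members over the 7 pools were sought among 11583 genes outside the list that averaged 5 CPM or more. The 10 nearest, with Pearson's r from 0.978 to 0.993 over 7 pools, were *Atp5g3*, *Grtp1*, *Got1*, *Clybl*, *Cpt1b*, *Gmpr*, *Atp5a1*, *Sdhd*, *Atp5b* and *Synpo2l*. *Atp5g3*, *Atp5a1* and *Atp5b* encode subunits of the mitochondrial ATP synthase, *Sdhd* a subunit of succinate dehydrogenase, *Cpt1b* the muscle form of the enzyme that admits fatty acids to mitochondria, and *Synpo2l* an actin-binding protein of the Z-disc. *Atp5g3* was at 429, 458 and 413 CPM in the control pools and 330.0, 461, 406 and 399 CPM in the mutant pools, again lowest in mutant replicate 1. With that pool left out, r remained between 0.890 and 0.975 for these 10 genes. The pools share library and depth in every gene, so r is a description.

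Further genes of the same systems came from lists written beside the members. A list of 46 names held other sarcomere genes together with genes of muscle metabolism, *Mb*, *Cox8b*, *Fabp3* and *Eno3* among them. Of these, 38 were listed, 26 lower and 12 higher, with a median log2 fold change of -0.12, and 0 passed limma's adjusted test. The groups did not overlap in *Mb*, which encodes myoglobin, at 29.2, 41.6 and 24.6 CPM in the control pools and 13.2, 23.98, 17.8 and 21.98 CPM in the mutant pools, and in *Cox8b*, at 3.64, 3.59 and 2.63 CPM and 2.03, 2.43, 2.24 and 2.12 CPM. Of 33 other calcium handling genes, all listed, 15 were lower and 18 higher, with a median of 0.03 and 0 past the adjusted test. Of these, the mutant pools were all above the control pools in *Cacna1d*, a calcium channel of pacemaker cells, at 35.5, 32.02 and 35.3 CPM and 40.9, 44.99, 43.5 and 40.01 CPM, and in the plasma membrane calcium pump genes *Atp2b4* and *Atp2b1*, with log2 fold changes of 0.30, 0.23 and 0.09. Of 16 cardiac transcription factors, 10 were higher and 6 lower, and *Hand1* and *Hey2* did not overlap, with log2 fold changes of 0.41 and 0.20. Over all genes, the mutant pools were all above the control pools in 4.31% and all below them in 4.16%.

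Markers of other OFT cell types were read beside the members for the makeup of the pools. The score of 10 listed smooth muscle markers ran from 7.01 to 7.03 over the controls and from 7.13 to 7.26 over the mutants, with 8 genes higher and 2 lower, so that the scores of the genotypes did not overlap. Each gene has the same weight in the score, and *Myh11*, a gene with few reads, had the largest log2 fold change of the list (0.68). *Myh11* was at 3.21, 3.97 and 5.49 CPM in the control pools and 12.5, 3.19, 8.99 and 6.25 CPM in the mutant pools. The separation of the scores rests on *Myh11*: with this gene left out of the mean, mutant replicate 1 falls below the control pools and the genotypes overlap. This list includes the members *Des* and *Ldb3*. Endothelial and endocardial markers were at 5.76 to 6.14 and 5.80 to 6.04 (12 of 12 listed), cushion mesenchyme at 8.25 to 8.52 and 8.10 to 8.48 (11 of 11), epicardium at 5.06 to 5.33 and 4.82 to 5.36 (8 of 8), and macrophages at 2.39 to 2.93 and 2.17 to 3.35 (9 of 9). Erythroid markers were at 6.14 to 7.34 and 6.39 to 7.74, with 11 of 11 listed genes higher on average in the mutant pools. Neural crest and glia were at 3.56 to 3.62 and 3.29 to 3.54 (7 of 9 listed), again without overlap and lower in the mutant pools, and pharyngeal epithelium, with 2 of 8 listed, at 5.11 to 5.73 and 5.38 to 5.83. None of these genes passed limma's adjusted test. Single markers whose groups did not overlap were *Synpo2* of smooth muscle, higher in the mutant pools (log2 fold change 0.26), and *Smtn* of smooth muscle and *Pdgfra* of the cushion mesenchyme, lower at -0.15 and -0.50. Among all genes, 4.31% were above and 4.16% below without overlap. The part of all these markers in the members' values was not tested.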

How the data were processed

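Libraries of 7 pools of E11.5 mouse OFTs (3 control, 4 *Gata6*STOP/+) were made with a strand-specific kit and read from 1 end. As the methods and the labels state, the authors trimmed adapters with Cutadapt, quantified Ensembl genes of GRCm38 with RSEM, filtered on 1 CPM in 3 or more samples and normalized in edgeR. They also tested the genotypes with edgeR's generalized linear model, which called genes at an adjusted P under 0.05. The deposited values are CPM of TMM-adjusted libraries, and all 14732 genes meet that filter. No per-sample column was left unused. RNA integrity and batches are not given in the sources used here. Dividing by what 1 read is worth gave whole reads (100% of values, within 0.1 reads), the smallest value being 2 reads in mutant replicate 3, 6 in mutant replicate 5 and 4 in control replicate 4, and 1 read in the rest.

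The members and gene lists were chosen with earlier results of these data known. The main test was limma 3.58.1 (R 4.3.3, moderated with a trend) on log2(CPM + 0.5) over all 7 pools, two-sided and unpaired, with Benjamini-Hochberg adjustment over 14732 genes and a threshold of 0.05. Alternatives were constants of 0.1 and 2, genes averaging 5 CPM or more, median-of-ratios scaling, a replicate block, edgeR 4.0.16 and DESeq2 1.42.0 on the recovered reads, the anchors' mean as covariate, and leaving out pools. The fits were checked on simulated reads. Positions and exonic lengths come from GENCODE M21 (GRCm38), in which all 46 members were found, and upstream sequences and their starts from RefSeq (GRCm38.p6), whose starts can differ from those of GENCODE. Full statistics are given for 26 listed genes, and for other members that did not overlap or had an unadjusted P under 0.05. Other list genes are named where groups did not overlap. The nearest genes are the 10 with the highest correlation. Errors of read counts alone cover counting error only. Of the genes outside the members that were looked at, 1 is not reported here.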

Additional observations from a re-analysis of the deposited data

Results flagged for a closer look

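In the 4 *Gata6*STOP/+ pools, *Slc8a1* was at 828, 985, 979 and 959 CPM in replicates 1, 3, 4 and 5. The lowest pool, replicate 1, was set apart from the others by 0.851 of the range of the group, which is above Dixon's 95% critical value for 4 samples. This was the only one of the 38 values looked at that was so set apart, and chance sets apart about 1 in 20 groups. *Slc8a1* without this pool had a log2 fold change of 0.20, compared with 0.14 over all pools.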

How the results depend on the processing

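Other constants, the filter on low values, median-of-ratios scaling and edgeR's quasi-likelihood test kept the direction and the side of the threshold for all 29 genes with full statistics, where the filter left the gene in. Limma called 0 genes, compared with 1 with a constant of 0.1, 105 with edgeR's likelihood ratio test, 88 with DESeq2 and 8 with the anchors as covariate. Of these, 1 was a member (*Mybpc1*) with the likelihood ratio test and 1 with DESeq2, and the adjusted P of *Mybpc1* ran from 0.000389 to 0.549 over all alternatives. Members at an unadjusted P under 0.05 numbered 12 with the anchors as covariate, compared with 7, and members without overlap numbered 8 relative to the anchors, compared with 2. The direction of *Xirp1* turned to 2.09e-05 with DESeq2 and 0.050 with the covariate. The cause of these differences was not tested.

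Same-numbered pools had correlations of -0.05, -0.27 and -0.02 of their deviations from the group means, and differently numbered pools of -0.15 to 0.22. These values gave no sign of pairing by number. Deviations within a group offset one another, so such correlations cannot exclude pairing. With the replicate block, mutant replicate 1 drops out of the comparison because no control pool has that number. The block gave 14 genes with limma, 13 with the quasi-likelihood test and 118 with the likelihood ratio test, 2 of the latter being members (*Mybpc1* and *Acta1*). In these 3 fits the log2 fold change turned positive in *Actn2* (0.085), *Csrp3* (0.018), *Des* (0.011), *Myh7* (0.016), *Myl7* (0.058 to 0.059), *Tnnt2* (0.038) and *Xirp1* (0.082).

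Leaving out 1 pool, or control replicate 4 and mutant replicate 1 together (added after the values were seen), gave 0 to 33 genes called, 0 members called and 4 to 12 members at an unadjusted P under 0.05. The 12 came without mutant replicate 3, and 4 each without control replicates 4 or 5 and mutant replicates 4 or 5. Leaving out 1 pool gave 2 to 8 members without overlap. Groups of fewer pools part more easily in any gene. The shares of all genes in these settings were not computed, so these counts of members have no background to be read against. The members' median ran from -0.13 to 0.06, positive where mutant replicate 1 was left out. Directions turned within -0.080 to 0.085 for *Actn2*, -0.078 to 0.17 for *Ankrd1*, -0.036 to 0.17 for *Atp2a2*, -0.23 to 0.018 for *Csrp3*, -0.21 to 0.091 for *Des*, -0.18 to 0.011 for *Mybpc3*, -0.11 to 0.016 for *Myh7*, -0.23 to 0.075 for *Myl7*, -0.37 to 0.0068 for *Myoz2*, -0.055 to 0.16 for *Ryr2*, -0.47 to 0.085 for *Sln*, -0.18 to 0.060 for *Tnnt2*, -0.0051 to 0.11 for *Ttn* and -0.049 to 0.16 for *Xirp1*. Differences under the SE of a gene, and larger ones too, could not be told from 0 with 3 against 4 pools. In limma, *Pln* at -0.29 ± 0.14 (SE) had an unadjusted P of 0.063, and *Mybpc1* at 0.61 ± 0.12 an adjusted P of 0.186. Counting error was largest for *Sln*, *Ckm*, *Nppa*, *Nppb* and *Myom2*, the members with under 200 reads in at least 1 pool.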
